A study of Mus musculus with 20 samples.

Results

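Side population (SP) cells of skeletal muscle were compared with main population (MP) cells of bone marrow, to see which blood lineage transcripts could be detected in the muscle sort and which vascular and stromal transcripts were missing from marrow cells. The comparison took the 5 muscle SP arrays and the 5 bone marrow MP arrays out of 20 in the series, and 12422 of 12488 probe sets, the 66 control probe sets being left out. Muscle SP cells and bone marrow MP cells both came from adult mice of the inbred strain C57BL/10SnJ, and the labels name no altered allele, treatment or time point for any group. The other 10 arrays, 5 of muscle MP and 5 of bone marrow SP cells of the same strain, entered only the estimate of spread and a few side values. The labels do not give the sort gates, the removal of blood cells from the muscle suspension, the sex of the mice or the number of animals per sample. Because nothing states that the samples of a group were separate animals or sorts, p-values measure the spread between these samples only, and that spread may be technical.

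Side population cells are defined by how little of a DNA-binding dye they retain, since ABC transporters in their membrane pump it out. In muscle the fraction is known to contain many endothelial cells along with other interstitial cells and some blood cells. Marrow main population cells retain the dye and are mostly maturing granulocytes, red cell precursors, B lineage cells and monocytes. Blood lineages are told apart by granule proteins, globins and receptors, whereas vessels and connective tissue are marked by junction proteins, collagens and contractile proteins.

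Signals are given after quantile normalization of all arrays. Each gene was read by its probe set of highest mean over all arrays, and what is said of a gene holds for that probe set only. A floor was set at 105 signal (6.71 on the log2 scale), the 25th percentile of all values, and a gene was counted as above the floor in a group only if it exceeded the floor on all 5 arrays. This criterion is weak on its own. Of 45 measured genes of unrelated tissues (lens crystallins, pituitary hormones, digestive enzymes and the like), 12 were above the floor on all muscle SP arrays and 18 on all bone marrow MP arrays. A stricter level of 677 signal was therefore used beside it, the 95th percentile of the signals of those genes over all 20 arrays. It was passed by 1 of the 45 on all muscle SP arrays and by 2 on all bone marrow MP arrays, few by construction, since these genes set the level. Their 95th percentile within each group was 557 signal in muscle SP and 772 in bone marrow MP. The common level is therefore harsher on muscle SP, which bears on every comparison of counts at that level. Over all 8251 named genes, 72.8% were above the floor in muscle SP and 73.5% in bone marrow MP, and 40.6% and 42.8% were above the stricter level. In bulk samples, fewer cells of a type and less RNA per cell cannot be told apart.

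A transcript tied to the sort was read first. The groups differ in tissue as well as in gate, so it cannot check the gate labels alone. Abcg2, the dye efflux pump of side population cells, had signals of 17930.3, 17176, 15898, 26893 and 32692 in muscle SP, against 818, 972, 968, 888 and 946 in bone marrow MP (log2 difference 4.53, SE 0.25, adjusted p = 6.97e-13). All muscle SP arrays lay above all bone marrow MP arrays. The muscle SP arrays were less alike (Pearson r across probe sets 0.911 to 0.976) than the bone marrow MP arrays (0.964 to 0.981), and r between the groups was 0.704 to 0.760. The muscle SP arrays also differed among themselves in neutrophil, erythroid and smooth muscle transcripts. The 28 measured neutrophil genes summed to 26103, 66511, 29925, 8547 and 8303 on muscle SP arrays 1 to 5, and the 20 erythroid genes summed to 49160, 40048, 28485, 13865 and 14727. The 21 pericyte and smooth muscle genes ran the other way, at 71655, 75497, 66583, 148163 and 143044. Arrays 1, 2 and 3 were thus above arrays 4 and 5 in the neutrophil and erythroid sums and below them in the smooth muscle sum. They were also above arrays 4 and 5 in the sums of the general leukocyte, monocyte, MHC class II, eosinophil and mast cell, T cell and NK lists. The B lineage, platelet and blood stem cell sums did not follow this order. The deposited array medians were 375 to 495 signal in muscle SP and 319 to 401 in bone marrow MP. Precision is limited by the number of arrays. The log2 ratio of 3' to 5' probe signal, which rises as RNA degrades or is copied incompletely, averaged 3.83 ± 0.61 for GAPDH in muscle SP and 2.67 ± 0.72 in bone marrow MP (SD, n = 5 each). The difference was 1.16, with an exact two-sided permutation p of 0.00794, the smallest that 5 arrays a group allow. For beta-actin the ratio averaged 2.52 ± 0.40 in muscle SP and 0.98 ± 0.28 in bone marrow MP, a difference of 1.54 with the same exact permutation p. Adjusted over both ratios the p stayed at 0.00794. The part of RNA quality in the differences below was not tested beyond a fit with the GAPDH ratio as a covariate. That fit called 2062 probe sets higher and 2287 lower. Of the genes named in this report, 9 lost their call in it, 6 gained one and 4 changed sign. Ccl5, Gzma, Sox2, Vcam1 and Gata2 were among those that lost it.

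**Figure D1:**
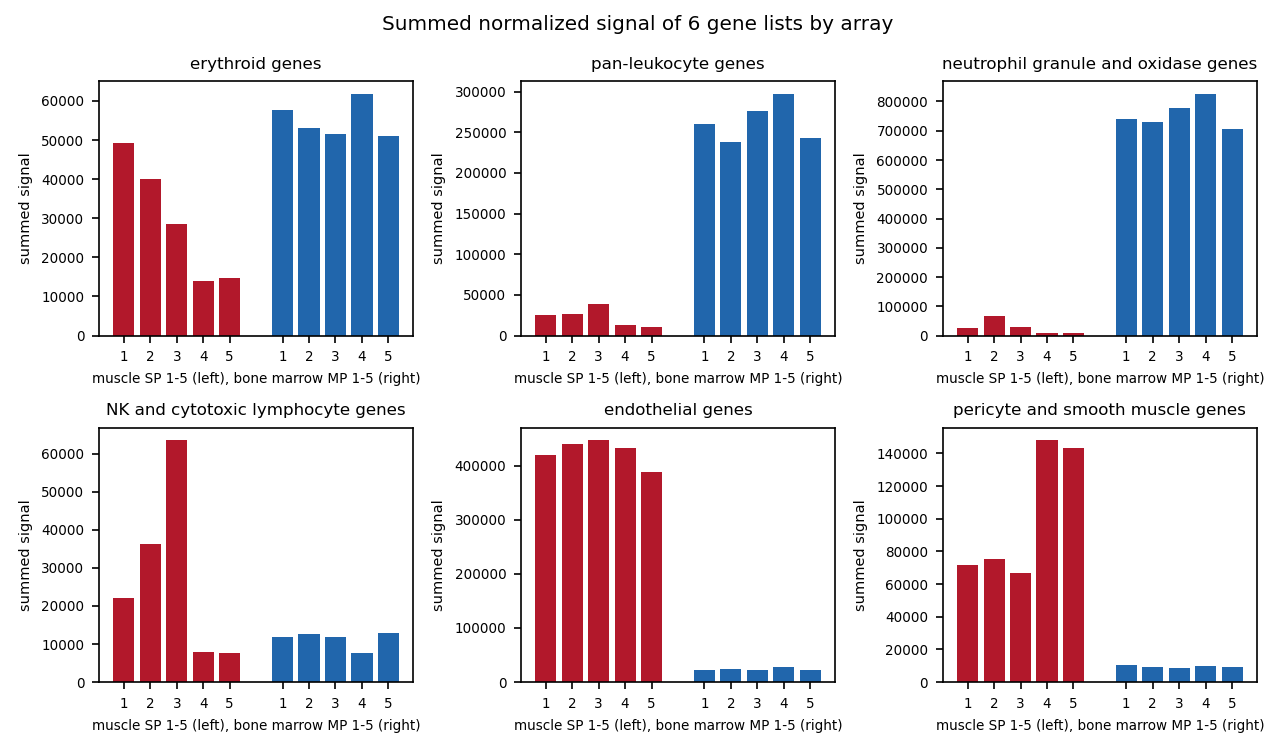
Summed normalized signal of 6 gene lists (vertical axes, linear from 0) on each array, muscle SP 1 to 5 in red on the left and bone marrow MP 1 to 5 in blue on the right. The erythroid sums of muscle SP 1 to 3 lie between 28485 and 49160 and those of muscle SP 4 and 5 at 13865 and 14727, while the pericyte and smooth muscle sums are highest on muscle SP 4 and 5.

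Nearly as many transcripts were higher as lower. Of 10310 probe sets tested, 2244 (21.8%) were higher and 2574 (25%) lower in muscle SP at an adjusted p under 0.05, 46.7% together, with a median log2 difference of -0.08. A 2-fold or larger difference was called for 1497 higher and 1535 lower probe sets, and a 16-fold or larger one for 199 and 137. Whether called or not, 1637 probe sets (15.9% of those tested) had all muscle SP values above all bone marrow MP values. For 1853 (18.0%) all muscle SP values lay below. Any count of genes given below has to be read against these shares.

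The largest rises included Cavin2 and Timp3. Cavin2, a coat protein of caveolae, had 41544, 41345, 38007, 38798 and 31995 in muscle SP and 49.2, 138, 113, 80.7 and 55.3 in bone marrow MP (log2 difference 8.41, SE 0.44, adjusted p = 3.03e-13). Timp3, a matrix-bound inhibitor of metalloproteinases, was similar, with 42837, 35342, 40521, 35194 and 40027 against 55.5, 78.5, 144, 118 and 86.1 (log2 difference 8.40, adjusted p = 1.91e-15). Col4a1, Cav1, Cpe, Cdh5, Dcn and Vwf followed, with log2 differences of 8.33, 7.93, 7.81, 7.66, 7.48 and 7.46. A second, dimmer probe set of Cav1 did not pass the test (0.41, adjusted p = 0.237). Sparc, Col1a2, Igfbp3 and Kitl were at the floor on every bone marrow MP array, so their differences are bounds, at least 269-fold, 202-fold, 183-fold and 168-fold higher in muscle SP. For Col1a2 this holds for the brighter probe set only, since a second one was above the floor on all arrays of both groups and did not pass the test (-0.21, adjusted p = 0.424). Kitl encodes stem cell factor, the ligand of the receptor Kit. It had 20082, 19914, 15593, 14839 and 18224 in muscle SP, against 38.3, 15.3, 71.2, 64.2 and 12.7 in bone marrow MP. Kit itself, carried by blood progenitors and mast cells, was lower in muscle SP, with 994, 799, 676, 288 and 378 against 1674, 1312, 1066, 902 and 1672 (log2 difference -1.18, SE 0.29, adjusted p = 0.00177).

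The largest falls were mostly genes of neutrophils. Mmp8 and Mmp9, the collagenase and gelatinase that neutrophils store in granules, differed by -8.16 and -8.14 on the log2 scale. Lcn2, Wfdc21, Il1rn, Ltf, Ifitm6, Ly6g, Fpr2, Chil1, Mpo and Arg2 were lower in muscle SP too, with log2 differences of -7.65 to -6.49. Several of these were at or near the floor in muscle SP, and the floor shortens their differences.

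**Figure D2:**
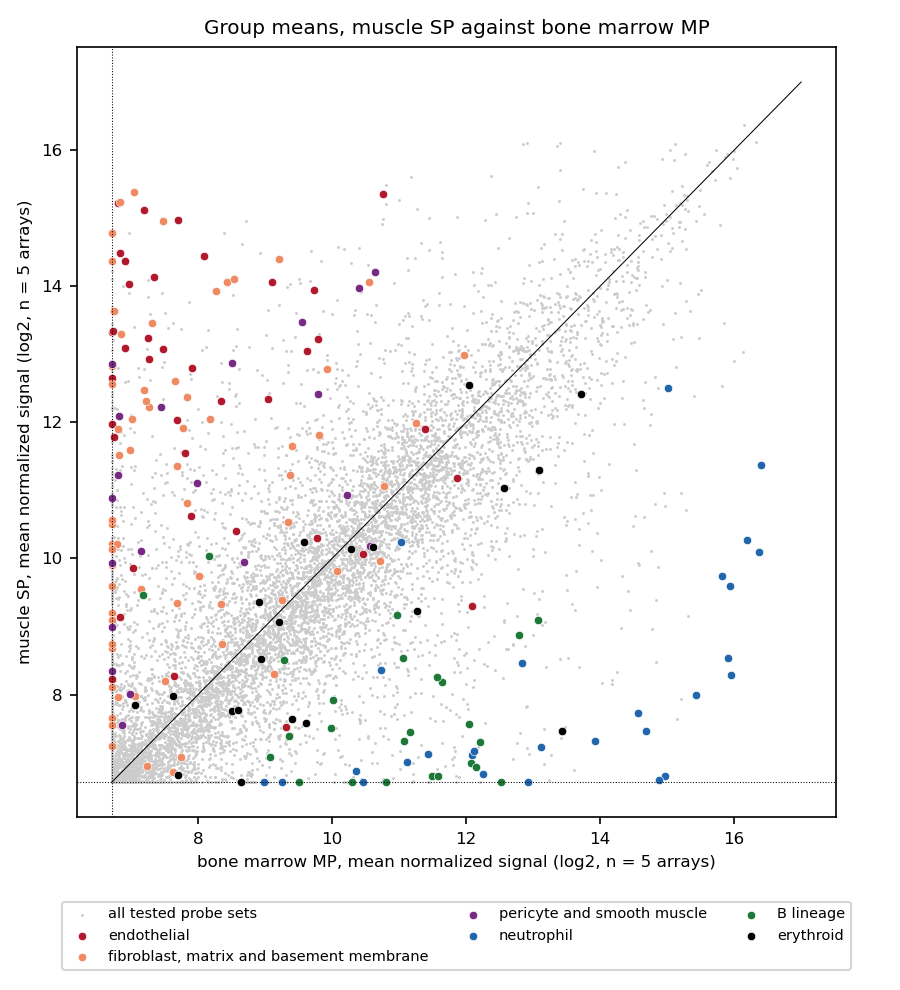
Mean log2 normalized signal of each tested probe set in muscle SP (vertical axis) against bone marrow MP (horizontal axis), n = 5 arrays each, with genes of 6 kinds coloured, dotted lines at the floor and a diagonal of equal level. Neutrophil genes and all B lineage genes but Ebf1 and Prdm1 lie below the diagonal, most endothelial, matrix and smooth muscle genes above it, and a column of them stands on the bone marrow MP floor.

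Most blood lineage genes gave far less signal in muscle SP, and few passed the stricter level on all 5 arrays there. Of 237 measured genes on all the blood lists together, 118 (49.8%) were above the floor on all muscle SP arrays, against 183 (77.2%) in bone marrow MP. At the stricter level the counts were 25 (10.5%) in muscle SP and 117 (49.4%) in bone marrow MP. Such counts ask for all 5 arrays, so muscle SP 4 and 5 weigh on them. Ptprc, S100a8, Camp and Ctss were above the stricter level on muscle SP 1, 2 and 3 and below it on 4 and 5. With fewer arrays to pass, 148 genes were above the floor without muscle SP 4 and 5, and 130 without muscle SP 1, 2 and 3. The stricter count was not made without these arrays. Of 213 genes tested, 139 (65.3%) were lower and 19 (8.92%) higher in muscle SP, against 25% and 21.8% of all probe sets tested, with a median log2 difference of -1.93. All 5 muscle SP arrays were at the floor for 37 of the genes. Of these 37, 14 were above the floor on all bone marrow MP arrays, 14 were at the floor there too, and 9 were mixed. The share above the floor in muscle SP was lower than that of all named genes (72.8%). The share above the stricter level was lower too, at 10.5% against 40.6% of all named genes.

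**Figure D3:**
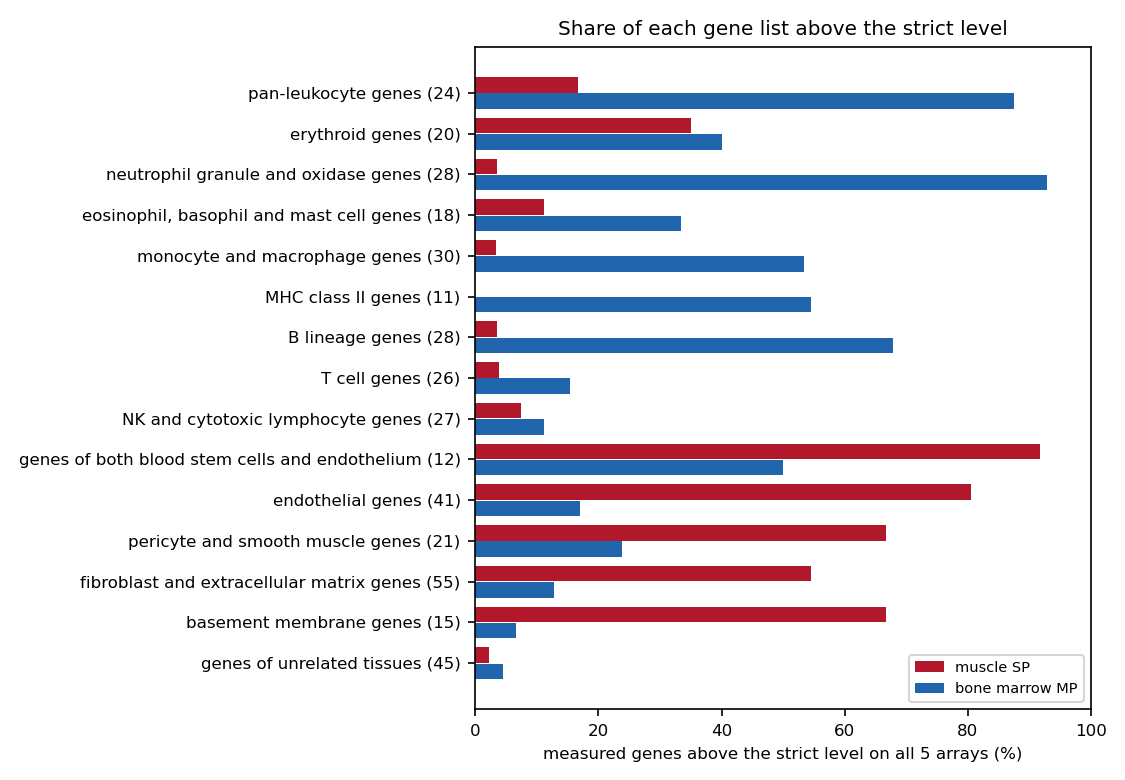
Share of the measured genes of each list (number in parentheses) above the stricter level of 677 signal on all 5 arrays (horizontal axis, percent), muscle SP in red above bone marrow MP in blue. In muscle SP the lists of leukocyte genes reach at most 16.7%, the erythroid list 35%, and the endothelial list 80.5% in muscle SP against 17.1% in bone marrow MP.

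Genes shared by all leukocytes were low in muscle SP but seldom missing. None of the 24 measured was at the floor on every muscle SP array, 13 were above it on all 5, and 22 were lower in muscle SP, with a median log2 difference of -3.81. Ptprc, which encodes the common leukocyte antigen CD45, had 1176, 1658, 3236, 191 and 385 in muscle SP and 21782, 15102, 21367, 21637 and 23958 in bone marrow MP (log2 difference -4.58, SE 0.50, adjusted p = 6.52e-08). Every muscle SP array lay below every bone marrow MP array, and arrays 4 and 5 were the lowest. Laptm5, a lysosomal protein of blood cells, showed the same order, with 10927, 9479, 11893, 2258 and 1569 in muscle SP and 56187, 38543, 45402, 38007 and 41544 in bone marrow MP (log2 difference -3.02, adjusted p = 2.83e-06). Without muscle SP 4 and 5 the log2 differences were -3.47 with an adjusted p of 1.57e-08 for Ptprc and -2.03 with an adjusted p of 4.23e-07 for Laptm5, and without muscle SP 1, 2 and 3 they were -6.25 with an adjusted p of 1.58e-11 and -4.50 with an adjusted p of 8.35e-11. Lcp1, an actin-bundling protein, varied less between the muscle SP arrays. It had 1656, 2114, 2602, 2192 and 1556 in muscle SP and 30761, 25443, 37789, 36245 and 30121 in bone marrow MP, 16-fold lower in muscle SP (adjusted p = 9.99e-14). Lcp1, Laptm5 and Rac2, a leukocyte GTPase, were among the 4 of 24 above the stricter level on all muscle SP arrays, against 21 of 24 in bone marrow MP.

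Globin transcripts varied widely between the muscle SP arrays. Hba-a1, alpha globin, had 16837, 15410.4, 10664, 1239 and 1386 in muscle SP, against 13004, 16017, 14188, 15341 and 9479 in bone marrow MP (log2 difference -1.30, SE 0.61, adjusted p = 0.0874). Muscle SP 1, 2 and 3 lay within or just above the range of the marrow arrays, and muscle SP 4 and 5 far below it. The log2 difference was 0.07 with an adjusted p of 0.918 without muscle SP 4 and 5, and -3.36 with an adjusted p of 7.54e-06 without muscle SP 1, 2 and 3. Hbb-b2, an adult beta globin, was likewise lowest on muscle SP 4 and 5, with 8375, 5254, 3117, 936 and 805 in muscle SP and 9423, 6315, 7733, 11297 and 9423 in bone marrow MP (log2 difference -1.78, SE 0.51, adjusted p = 0.00612). Its difference was -0.75 with an adjusted p of 0.152 without muscle SP 4 and 5. Of 20 measured erythroid genes, 18 were above the floor in muscle SP and 19 in bone marrow MP, and 10 were lower and 1 higher in muscle SP (median log2 difference -0.78). Without muscle SP 4 and 5 the list had 6 lower and 2 higher genes, and without muscle SP 1, 2 and 3 it had 12 lower and 2 higher. Car1, a carbonic anhydrase of red cell precursors, was at the floor on all muscle SP arrays, with 28, 34, 29.6, 25.3 and 17.7, against 198, 367, 575, 662 and 368 in bone marrow MP, at least 3.81-fold lower (log2 difference -1.93, adjusted p = 2.22e-05). Tfrc, the transferrin receptor, which many dividing cells use, did not pass the test (log2 difference 0.51, adjusted p = 0.141). Urod, a heme enzyme found in all cells, was called higher (log2 difference 0.66, adjusted p = 0.00972), but its second probe set was called lower (-0.95).

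Neutrophil genes were lower in muscle SP throughout. All 28 measured members were lower in muscle SP, with a median log2 difference of -5.66, and 27 of 28 stayed lower without muscle SP 4 and 5. At the stricter level 1 member passed in muscle SP, against 26 in bone marrow MP. The floor was passed by 10 members in muscle SP and by all 28 in bone marrow MP. S100a8, a subunit of the calprotectin complex of neutrophil cytoplasm, had 1044, 7089, 2544, 369.8 and 226 in muscle SP, against 81571, 84533, 84533, 99001 and 75168 in bone marrow MP (log2 difference -6.27, SE 0.63, adjusted p = 1.90e-08). Camp, the cathelicidin of secondary granules, had 6974, 15489.6, 4913, 643 and 389.7 against 84533, 88436, 88436, 84533 and 88436 (log2 difference -5.03, SE 0.75, adjusted p = 6.77e-06). In both, muscle SP 2 was the highest of its group and muscle SP 4 and 5 the lowest. Without muscle SP 2 the log2 differences were -6.95 for S100a8 and -5.67 for Camp, and without muscle SP 5 that of Camp was -4.35. Ltf, lactoferrin of secondary granules, had 295, 2377, 936, 30.3 and 92.1 in muscle SP and 63123, 51952, 65579.9, 65579.9 and 61634 in bone marrow MP (log2 difference -7.36, adjusted p = 5.15e-09). Its log2 difference was -8.03 without muscle SP 2, -6.15 with an adjusted p of 5.63e-08 without muscle SP 4 and 5, and -9.17 with an adjusted p of 1.81e-10 without muscle SP 1, 2 and 3. Mpo, the peroxidase of primary granules, had 155, 493, 122, 27.9 and 27.7 against 15849.7, 13799, 13171, 10786 and 29603 (log2 difference -6.61, adjusted p = 7.34e-13). Mmp8 had 44.5, 69.8, 143, 83.6 and 39.3 against 28338, 27110.3, 34976, 42162 and 29081, above the floor on 1 muscle SP array. Primary granule proteins are made early in neutrophil maturation and secondary granule proteins later, and genes of both stages were low in muscle SP. Ctsg, Cxcr2, Ceacam10 and Itgam were at the floor on all muscle SP arrays. Ctsg, a serine protease of primary granules, had 59.6, 92.3, 54.3, 18.4 and 9.80 in muscle SP and 1173, 1153, 1483, 1292 and 2153 in bone marrow MP, at least 13.5-fold lower. Cyba, a subunit of the phagocyte oxidase that other cells also make, was the member above the stricter level, with 4456, 7728, 10104, 4364 and 4419.5 against 32072, 28521, 33679.9, 34055 and 36983 (log2 difference -2.50, adjusted p = 6.80e-07). Csf3r, the receptor for the granulocyte growth factor, differed by -0.80 (adjusted p = 0.046) by its brightest probe set, and by -4.95 and -2.62 by the other 2. The brightest one lost its call without any one of muscle SP 2, 4 and 5 and bone marrow MP 1, 2 and 5, at -0.57 to -0.78.

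Promoter windows of 3 neutrophil genes that set the groups apart and of an endothelial gene at the floor in bone marrow MP are shown for comparison. They run 5′ to 3′ on the gene's strand, from 250 bases before to 50 after the annotated start, and come from RefSeq on the mouse build GRCm38.p6. Capitals mark matches on either strand to the letters GAGGAAGT, of the kind bound by the myeloid factor PU.1, or TTNNGCAA, of the kind bound by C/EBP factors, and the matches printed do not overlap each other. The windows are chr9:7558179-7558478 (Mmp8), chr3:90668821-90669120 (S100a8), chr11:87793534-87793833 (Mpo) and chr16:18776597-18776896 (Cldn5), all on the plus strand.
Mmp8: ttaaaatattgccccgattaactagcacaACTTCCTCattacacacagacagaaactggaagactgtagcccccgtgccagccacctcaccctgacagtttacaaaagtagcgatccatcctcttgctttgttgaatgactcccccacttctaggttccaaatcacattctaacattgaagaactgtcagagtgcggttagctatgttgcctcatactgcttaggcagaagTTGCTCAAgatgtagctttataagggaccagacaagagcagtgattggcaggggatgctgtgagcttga
S100a8: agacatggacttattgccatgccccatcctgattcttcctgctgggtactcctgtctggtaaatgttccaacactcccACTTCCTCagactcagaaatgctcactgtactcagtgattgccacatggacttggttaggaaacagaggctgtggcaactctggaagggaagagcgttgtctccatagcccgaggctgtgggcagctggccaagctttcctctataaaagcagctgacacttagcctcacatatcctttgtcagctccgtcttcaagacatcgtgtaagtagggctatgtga
Mpo: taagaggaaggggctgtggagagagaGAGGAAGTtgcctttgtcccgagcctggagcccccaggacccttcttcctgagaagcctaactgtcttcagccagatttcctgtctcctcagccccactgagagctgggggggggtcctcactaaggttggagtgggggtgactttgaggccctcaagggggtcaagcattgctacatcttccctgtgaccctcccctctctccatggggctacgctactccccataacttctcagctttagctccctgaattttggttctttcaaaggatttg
Cldn5: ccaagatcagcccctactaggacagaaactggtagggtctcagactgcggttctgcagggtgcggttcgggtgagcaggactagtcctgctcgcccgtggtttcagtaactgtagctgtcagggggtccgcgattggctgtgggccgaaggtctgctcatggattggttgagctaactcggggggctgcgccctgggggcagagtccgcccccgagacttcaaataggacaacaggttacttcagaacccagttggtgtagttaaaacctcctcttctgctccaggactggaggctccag
In Mmp8 the PU.1-type letters stand 221 to 214 bases before the start, on the minus strand, and the C/EBP-type letters 19 to 12 bases before it. S100a8 holds PU.1-type letters 172 to 165 bases and Mpo 224 to 217 bases before the start. Cldn5 holds neither. Of 32 listed neutrophil genes with a window, 6 (18.8%) held GAGGAAGT and 8 (25%) held TTNNGCAA, against 1 and 2 of 36 endothelial genes, and 3.69% and 12.2% of 27025 genes. These shares were not the highest of the lists. GAGGAAGT was held by 20% of the 20 leukocyte genes with a window, and TTNNGCAA by 31.6% of T cell, 31% of NK and cytotoxic and 44.4% of adipocyte genes. For TTNNGCAA the eosinophil list had the same share, 25%, and the fibroblast list was close, at 22.7%. A match is a description of letters and no evidence of binding.

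Monocyte and macrophage genes were mostly lower and partly absent. Of 27 tested, 23 were lower and none higher in muscle SP (median log2 difference -2.85). Of 30 measured, 1 passed the stricter level in muscle SP and 16 in bone marrow MP. The 1 in muscle SP was Cd14, a lipopolysaccharide co-receptor, with 2589, 3352, 2183, 2474 and 2116 in muscle SP and 24660.0, 24513, 24229, 21367 and 24660.0 in bone marrow MP (log2 difference -3.25, SE 0.26, adjusted p = 4.24e-10). Adgre1, which encodes the macrophage antigen F4/80, was at the floor on all muscle SP arrays, with 38.5, 36.8, 26.5, 36.6 and 21.3, against 1025, 793, 676, 545 and 726 in bone marrow MP, at least 7.04-fold lower (log2 difference -2.81, adjusted p = 2.77e-11). The muscle MP arrays were above the floor for Adgre1, at 393 to 523. Ctss, a cathepsin of antigen-presenting cells, and Tyrobp, an adaptor of myeloid receptors, were lowest on muscle SP 4 and 5. Ctss had 5169.5, 4759, 3687, 309 and 594 in muscle SP and 39537, 31078, 29407, 21118 and 45097 in bone marrow MP (log2 difference -4.20, adjusted p = 1.22e-06). Its log2 difference was -3.57 without muscle SP 4, -2.84 with an adjusted p of 1.26e-08 without muscle SP 4 and 5, and -6.23 with an adjusted p of 6.24e-12 without muscle SP 1, 2 and 3. Tyrobp had 714, 1723, 3002, 166 and 223 against 23434, 30248, 34501, 30491 and 28838 (log2 difference -5.45, adjusted p = 3.09e-08). Cx3cr1, a chemokine receptor, was not called (log2 difference 0.40, adjusted p = 0.171). Aif1, Marco and Siglec1 were at the floor on all arrays of both groups. MHC class II genes, carried by antigen-presenting cells, were also lower in muscle SP for 8 of 10 tested, with none higher. Cd74, the invariant chain, had 819, 582, 482, 482 and 488 in muscle SP and 1575, 1994, 1752, 2480.1 and 1616 in bone marrow MP (log2 difference -1.73, adjusted p = 3.58e-08), and none of 11 measured passed the stricter level in muscle SP.

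Several eosinophil genes were at the floor in muscle SP, while a mast cell protease was higher there. Prg2, the eosinophil major basic protein, had 33.4, 30.9, 68.4, 28.9 and 25.4 in muscle SP, against 9047, 4827, 5892, 3782 and 8008 in bone marrow MP, at least 57.3-fold lower (log2 difference -5.84, SE 0.54, adjusted p = 5.39e-09). A second, dimmer probe set of Prg2 was above the floor on 2 arrays of each group and did not pass the test (0.20, adjusted p = 0.534). Epx, eosinophil peroxidase, and Alox15, a lipoxygenase, were likewise at the floor in all muscle SP arrays, at least 17-fold and 17.4-fold lower. Cma1, a chymase of connective tissue mast cells, had 2708, 1674, 6315, 283 and 411 in muscle SP and 331, 219, 151, 274 and 362 in bone marrow MP (log2 difference 2.32, SE 0.56, adjusted p = 0.0015). Muscle SP 1, 2, 3 and 5 were above every bone marrow MP array and muscle SP 4 within their range, and without muscle SP 1, 2 and 3 the log2 difference was 0.42 with an adjusted p of 0.336. Tpsb2, a mast cell tryptase, did not pass the test (log2 difference 0.40, adjusted p = 0.349). Hdc, which makes histamine, had 2515, 1715, 2178, 2336 and 1691 in muscle SP and 15571, 16273, 16538, 16665 and 17651 in bone marrow MP, 8.02-fold lower in muscle SP (adjusted p = 3.08e-11). Over the 18 measured genes of this list, 10 of 13 tested were lower and 1 was higher.

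**Figure D4:**
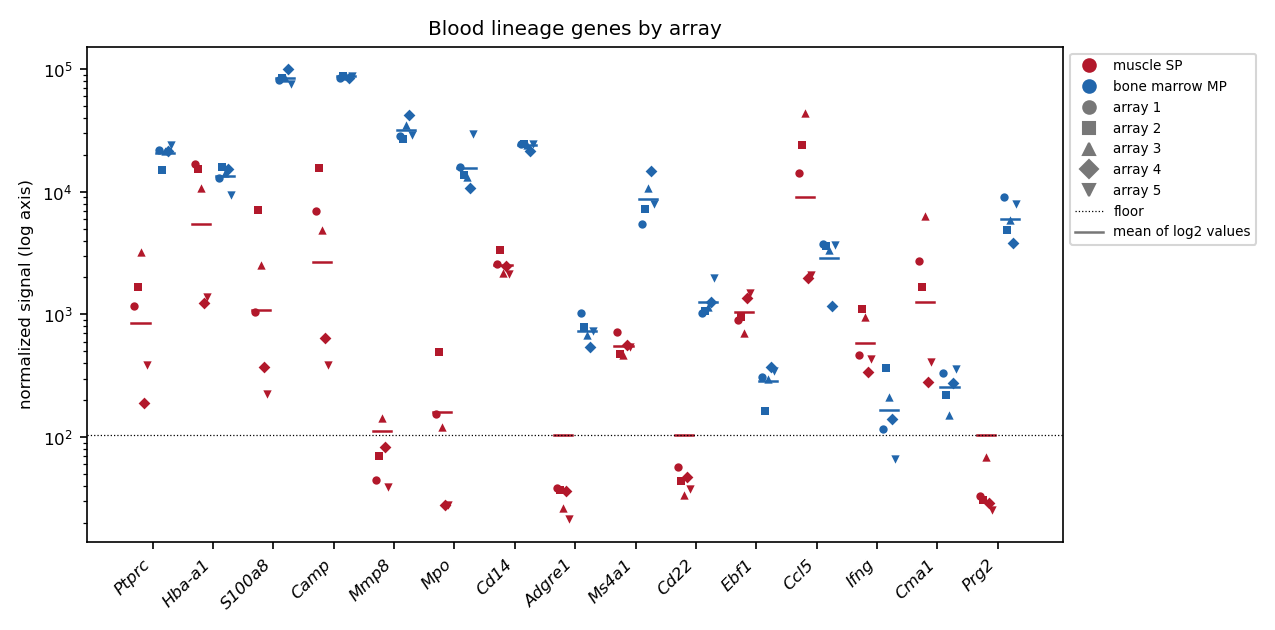
Normalized signal (vertical log axis) of 15 blood lineage genes on each array, muscle SP in red left of bone marrow MP in blue, with bars at the mean of log2 values after the floor, marker shapes for the array numbers and a dotted line at the floor of 105 signal. Ptprc, Hba-a1, S100a8, Camp, Mpo, Ccl5 and Cma1 are among those that spread over more than a decade within muscle SP. Adgre1, Cd22 and Prg2, each by its brightest probe set, lie below the floor on all muscle SP arrays.

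B lineage genes were lower in muscle SP with 2 exceptions. Of 25 tested, 22 were lower and 2 higher, with a median log2 difference of -3.58, and 1 of 28 measured passed the stricter level in muscle SP against 19 in bone marrow MP. The summed signal of the list hardly varied between muscle SP arrays (6273 to 7695), unlike that of the neutrophil and erythroid lists, and stood at 58404 to 98607 in bone marrow MP. Ms4a1, the B cell antigen CD20, had 719, 476, 470.0, 567 and 541 in muscle SP, against 5445, 7239, 10664, 14618 and 7899.8 in bone marrow MP (log2 difference -3.98, SE 0.23, adjusted p = 1.70e-12). Ighm, the heavy chain of IgM, had 436, 494, 565, 459 and 406 against 6378, 4676, 7337, 14081 and 5786 (log2 difference -3.92, adjusted p = 3.70e-11). Cd22, Ly6d and Irf4 were at the floor in muscle SP. Irf4, a factor of late B cells and plasma cells, had 72.1, 69.8, 46.5, 44.4 and 30 in muscle SP and 5207, 5667, 5739.9, 11969 and 3438 in bone marrow MP, at least 56-fold lower. Ebf1, a founding factor of the B lineage that stromal and adipose cells also express, was the reverse. It had 906, 959, 709, 1365 and 1492 in muscle SP, against 308, 164, 299, 376 and 348 in bone marrow MP (log2 difference 1.86, SE 0.23, adjusted p = 6.23e-07), with all muscle SP arrays above all marrow arrays. Prdm1, known for plasma cells and also expressed outside the blood, had 492, 810.1, 609.9, 816 and 901 against 144, 171, 129, 159 and 129 (log2 difference 2.29, adjusted p = 7.00e-08). Cd79a, part of the B cell receptor, was above the floor on 4 of 5 muscle SP arrays, with 233, 90.7, 129, 147 and 293 against 795, 442, 595, 636 and 927 (log2 difference -1.97, adjusted p = 3.75e-06).

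T and NK cell genes did not follow the myeloid and B lineage lists. Of 26 measured T cell genes, 11 were above the floor in muscle SP and 11 in bone marrow MP. Of 21 tested, 3 (14.3%) were higher and 3 (14.3%) lower in muscle SP, against 21.8% and 25% of all probe sets tested, with a median of -0.01. For Cd3e and Cd3g, which encode signalling chains that T cells carry beside their receptor, no muscle SP array and 1 of 5 bone marrow MP arrays exceeded the floor. The T cell list member with the largest difference was Thy1, which is also a surface protein of fibroblasts. It had 525, 858, 1545, 1014 and 882 in muscle SP and was at the floor in bone marrow MP (49.2, 35.5, 51.3, 42.3 and 48.8), at least 8.68-fold higher. Gata3, a T cell factor also made elsewhere, was higher as well (672, 626, 1021, 592 and 610.3 against 103, 118, 138, 98.3 and 95.1, log2 difference 2.60, adjusted p = 5.11e-10). Cd247, a further such chain, named here after its values were seen, was the third (log2 difference 1.18). Without muscle SP 1, 2 and 3 the T cell list had 2 higher and 7 lower genes. Of 23 tested NK and cytotoxic genes, 7 (30.4%) were higher and 3 (13%) lower in muscle SP (median 0.25). Without muscle SP 1, 2 and 3 the list had 2 higher and 6 lower genes, and without muscle SP 4 and 5 the counts were 9 and 3. Ccl5, a chemokine of cytotoxic lymphocytes, had 14318, 23958, 44028, 1989 and 2109 in muscle SP, against 3723, 3636, 3329.6, 1181 and 3698 in bone marrow MP (log2 difference 1.67, SE 0.62, adjusted p = 0.0319). Muscle SP 1, 2 and 3 lay above all bone marrow MP arrays and muscle SP 4 and 5 within their range. The call was lost without any one of muscle SP 1, 2 and 3 and bone marrow MP 4, with differences down to 1.10. Ccl5 also lost its call with median scaling, with no filter, with only the 2 groups fitted and with the GAPDH ratio as a covariate. Its difference was 3.10 with an adjusted p of 1.20e-06 without muscle SP 4 and 5, and -0.49 with an adjusted p of 0.345 without muscle SP 1, 2 and 3. Ifng, interferon gamma, was higher in muscle SP, with 471, 1103, 947, 337 and 431 against 115, 365, 212, 141 and 66.6 (log2 difference 1.82, SE 0.37, adjusted p = 0.000315). Gzma, a granzyme, had 875, 1202, 2385, 357 and 317 against 364, 251, 248, 175 and 385 (log2 difference 1.51, adjusted p = 0.00259), and 0.30 with an adjusted p of 0.422 without muscle SP 1, 2 and 3. Gzmb did not pass the test (log2 difference -0.04, adjusted p = 0.945). Serpinb9, the inhibitor of granzyme B, was highest on muscle SP 4 and 5, with 871, 1218, 932, 1431 and 1579.8 against 398, 127, 215, 169 and 349.7 (log2 difference 2.35, adjusted p = 6.80e-06). Over all 27 measured genes the summed signal was 7641 to 63562 in muscle SP and 7699 to 12942 in bone marrow MP, and Ncr1, Gzmc and Gzmd were at the floor in both groups. The part of blood cells of arrays 1 to 3 in these differences was not tested beyond these values.

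Platelet genes gave little signal in either group. Of 7 measured, 5 could be tested and 4 were lower in muscle SP. P2rx1, an ATP receptor of platelets, differed by -0.53 (adjusted p = 0.0106), and its call was lost without further normalization (-0.40, adjusted p = 0.069). Of 17 blood stem and progenitor genes tested, 5 (29.4%) were higher and 6 (35.3%) lower in muscle SP (median log2 difference -0.37). These shares were not far from the 21.8% and 25% of all probe sets tested. Hoxa7, a homeobox gene, had 1902, 2262, 1822, 2562 and 1848 in muscle SP and 67, 60.4, 135, 46.5 and 56.1 in bone marrow MP (log2 difference 4.22, SE 0.33, adjusted p = 2.90e-10). Hoxa5, with a difference of 1.92, and Mllt3, with 2.36, were the other named rises. Satb1, a chromatin organizer of lymphoid cells, was lower (598, 702, 1484, 359 and 447 against 2068, 1257, 2374, 2141 and 1574, log2 difference -1.54, adjusted p = 0.000168). Bmi1 and Cebpa did not pass the test (log2 difference 0.70, adjusted p = 0.0614 for Bmi1, and log2 difference -0.43, adjusted p = 0.0747 for Cebpa).

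Genes that blood stem cells share with endothelium were higher in muscle SP. Of 12 tested, 9 were higher and 2 lower, with a median log2 difference of 2.87, and all 12 were above the floor on all muscle SP arrays. Cd34, a sialomucin of stem cells and vessels, had 7456, 12599, 10847, 11425 and 8585 in muscle SP, against 395, 1029, 443, 343 and 609 in bone marrow MP (log2 difference 4.27, SE 0.25, adjusted p = 1.66e-12). Tek and Tie1, the angiopoietin receptor and its partner, were at the floor on all bone marrow MP arrays. Tek had 4128, 7170.1, 6125, 7984 and 8337 in muscle SP and 69.8, 56.7, 55.3, 30.5 and 12.8 in bone marrow MP, at least 62.5-fold higher. Tie1 had 11969, 7180.1, 8288, 5254 and 4267 against 44.5, 85.1, 92.4, 72.5 and 71.9, at least 66.1-fold higher. In bone marrow SP both were above the floor on all arrays, Tek at 139 to 479.7 and Tie1 at 342 to 1157. The transcription factors of the list did not move together. Gata2 was higher (log2 difference 1.23, adjusted p = 0.00128), but lost its call with the GAPDH ratio as a covariate (0.68, adjusted p = 0.0747). Lyl1 was lower (log2 difference -1.86, adjusted p = 1.50e-07). Hhex was called lower (log2 difference -0.79, adjusted p = 0.0355), and the call was lost without any one of muscle SP 2 and 3 and bone marrow MP 1, 4 and 5, at -0.50 to -0.79. Lmo2 did not pass the test by its brighter probe set (log2 difference -0.31, adjusted p = 0.235) and was lower by a second one (-1.09, adjusted p = 0.00344).

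Most endothelial genes were far higher in muscle SP. Of 39 tested, 32 were higher and 2 lower, with a median log2 difference of 4.59. Of 41 measured, 39 were above the floor in muscle SP and 23 in bone marrow MP, and at the stricter level 33 and 7. Cldn5, a claudin of endothelial tight junctions, had 9449.7, 16246, 14108, 7802 and 6924 in muscle SP and 38.4, 24.5, 25.4, 29.4 and 33.9 in bone marrow MP, at least 98.5-fold higher (log2 difference 6.62, adjusted p = 1.58e-14). Cd36, a fatty acid transporter of capillaries, had 3632, 3329.6, 4464, 3859 and 5086 against 45.4, 31.5, 54.3, 32.4 and 73.2, at least 38.4-fold higher (log2 difference 5.26, adjusted p = 6.41e-17). Ptprb, a phosphatase that acts on Tek, had 3968, 4921, 11031, 7715 and 6636 against 19.1, 18, 20.8, 12.4 and 26.7, at least 61.4-fold higher. Nos3, the endothelial nitric oxide synthase, was dim but passed in the same direction, with 147, 436, 412, 333 and 279.5 against 21.7, 22, 11.3, 19.6 and 13.6, but lost its call with the floor at the 40th percentile (0.40). These 4 genes were at the floor on all bone marrow MP arrays and above it on all muscle SP arrays, whereas Calcrl and Prox1 were at the floor in both groups.

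Other endothelial genes were not wholly missing from marrow. Cdh5, the cadherin of endothelial junctions, had 26266, 28838, 29754, 16477 and 17494 in muscle SP, against 35.9, 82.6, 135, 126 and 28.6 in bone marrow MP, above the floor on 2 arrays there (log2 difference 7.66, adjusted p = 1.59e-14). Kdr, a receptor for VEGF, had 29603, 28137, 22304, 17605 and 16906 against 259, 298, 198, 376 and 257 (log2 difference 6.36, SE 0.25, adjusted p = 2.26e-15), above the floor on all arrays of both groups. Nrp1, its co-receptor, had 51328, 42837, 53470.0, 34335 and 31291 against 1431, 1792, 2134, 1749.7 and 1632 (log2 difference 4.59, adjusted p = 2.23e-14) and passed the stricter level in both. Vwf and Selp, stored together in endothelial granules, were highest on muscle SP 4 and 5. Vwf had 7957, 17109, 17996, 48458 and 36245 in muscle SP and 58.9, 76.4, 138, 159.6 and 50.8 in bone marrow MP (log2 difference 7.46, SE 0.44, adjusted p = 2.84e-12). Selp, also a platelet protein, had 6788, 6848, 4429, 13969 and 15410.4 against 534, 1189.9, 1200.4, 893 and 447 (log2 difference 3.43, adjusted p = 1.16e-07). A few members did not set the groups apart. Pecam1, an adhesion molecule of endothelium, platelets and leukocytes, had 2327, 882, 759.5, 1077 and 848 in muscle SP and 1562, 1226, 1234, 1233 and 1919.9 in bone marrow MP, and the ranges overlapped (log2 difference -0.39, SE 0.27, adjusted p = 0.254). Lrg1 also missed the threshold (log2 difference -0.68, adjusted p = 0.284). Bmx, a kinase of arterial endothelium and of myeloid cells, was lower in muscle SP, with 664, 605, 425, 704 and 830.0 against 4093, 4885, 3827, 4899.8 and 4255 (log2 difference -2.79, SE 0.26, adjusted p = 5.68e-09). Lyve1, a hyaluronan receptor of lymphatic vessels and some macrophages, was the other fall (log2 difference -1.78, adjusted p = 7.08e-06) and was picked out after its values were seen.

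Pericyte and smooth muscle genes were higher in muscle SP for 18 of 20 tested, with none lower and a median log2 difference of 3.17. Myh11, the smooth muscle myosin, had 3624, 4156, 3746, 21713 and 17930.3 in muscle SP, against 99.4, 23.3, 22.1, 86.3 and 27.4 in bone marrow MP, at least 70.5-fold higher (log2 difference 6.14, SE 0.45, adjusted p = 8.59e-11). Muscle SP 4 and 5 stood well above the other arrays, and the log2 difference without them was 5.18 with an adjusted p of 6.09e-11. Pdgfrb, the pericyte receptor for PDGF, had 308, 711, 1279, 1955 and 1621 against 96.6, 26.5, 103, 58.6 and 88.2, at least 9.32-fold higher (log2 difference 3.22, adjusted p = 3.69e-08). Kcnj8, a potassium channel subunit of pericytes, was highest on muscle SP 3 and lowest on muscle SP 4, with 2164, 2589.6, 4237, 796 and 1295 against 22.4, 53.9, 26.1, 50.3 and 36.7. Gucy1b1 was also at the floor in bone marrow MP, with 317, 314, 227, 1106 and 1373 in muscle SP. Acta2, smooth muscle actin, was present in marrow as well, with 15983, 20001, 12500.1, 23771 and 26146 in muscle SP and 1184, 1675, 2164, 2351 and 1039 in bone marrow MP (log2 difference 3.57, adjusted p = 7.07e-09). Actg2 did not pass the test (log2 difference -0.38, adjusted p = 0.23).

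Fibroblast and matrix genes were mostly higher in muscle SP, and many were missing from bone marrow MP. Of 55 measured, 16 were at the floor on all bone marrow MP arrays, and 11 of these were above it on all muscle SP arrays. Of 53 tested, 42 were higher and 4 lower in muscle SP (median log2 difference 2.88). Sparc, a collagen-binding glycoprotein, had 18731, 32379, 38543, 25071 and 30611 in muscle SP and 16.4, 61.5, 15.3, 60.4 and 84 in bone marrow MP (log2 difference 8.07, adjusted p = 5.39e-15). Col1a2, the second chain of type I collagen, had 27915, 25255, 27305, 14735 and 14809 against 50, 38.2, 38.8, 36.8 and 47.9 by the brighter probe set (log2 difference 7.66, adjusted p = 1.91e-15). Mgp, an inhibitor of calcification, was very even, with 5546, 5852, 7378, 5825 and 5798 against 14, 23.6, 17.4, 24.2 and 27.4, at least 57.7-fold higher (SE 0.14 log2 units). Fmod and Ogn, small leucine-rich proteoglycans, and Lox, which cross-links collagen, were at least 11.3-fold, 13.9-fold and 9.12-fold higher. Col1a1, the first chain of type I collagen, passed the stricter level in bone marrow MP too. It had 39063, 24047, 15817, 10693 and 8972 in muscle SP and 1594, 1471, 1119.7, 1771 and 1650.4 in bone marrow MP (log2 difference 3.50, SE 0.34, adjusted p = 1.34e-08), and was highest on muscle SP 1. Dcn, decorin, had 27564, 38007, 34747, 27564 and 32926 against 229.6, 151, 161, 247 and 131 (log2 difference 7.48, adjusted p = 5.51e-16). Pdgfra, a fibroblast receptor, had 2682, 2782, 2704, 2569 and 2420.2 against 180.2, 103, 295, 366 and 184 (log2 difference 3.67, adjusted p = 7.48e-10), whereas a second probe set did not pass the test (-0.44, adjusted p = 0.129).

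Some of these genes were well expressed in marrow. Vcam1, an adhesion molecule of stroma and macrophages, had 6856, 7492, 2385, 16802 and 17109 in muscle SP and 5644, 5819.6, 2773, 1775 and 6259.5 in bone marrow MP (log2 difference 1.02, SE 0.42, adjusted p = 0.0495), and the groups overlapped. The call was lost without any one of muscle SP 1, 2, 4 and 5 and bone marrow MP 3 and 4, at 0.73 to 1.08. Vcam1 also lost its call without further normalization, with median scaling, with the floor at the 10th percentile and with no filter. The same held with only the 2 groups fitted and with the GAPDH ratio as a covariate. The difference was 0.32 with an adjusted p of 0.567 without muscle SP 4 and 5. Gsn, gelsolin, did not pass the test (log2 difference 0.29, adjusted p = 0.387). Igf1, a growth factor, was called lower by the brighter probe set, with 1415, 871, 999.9, 1019.8 and 801 in muscle SP and 2005, 1545, 1520.1, 1686 and 1680.0 in bone marrow MP (log2 difference -0.75, adjusted p = 0.00579), but a second probe set called it higher by 2.62 log2 units, at the floor in bone marrow MP. Its direction therefore depends on the probe set.

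All 13 basement membrane genes tested were higher in muscle SP, with a median log2 difference of 3.85. Col4a1 and Col4a2, the chains of type IV collagen found in most vessels, rose by 8.33 and 5.56 log2 units. Lama2, the laminin chain of muscle fibres and peripheral nerve, had 1095, 1528, 2220.1, 1563 and 1340.1 in muscle SP and 31.4, 80.4, 27.1, 67.6 and 18 in bone marrow MP, at least 14.4-fold higher. Lamb2 had 4796, 6147, 10563, 8388 and 7629 against 12.7, 67.7, 15.9, 9.60 and 8.70, at least 69.1-fold higher. Nid1 and Nid2, which link laminin to collagen, were at the floor in bone marrow MP and above it in muscle SP, with 135, 452, 436, 718 and 768 and with 572, 1298, 2048, 1133 and 1075. Agrn, a heparan sulfate proteoglycan, was above the stricter level in both groups, with 5711, 6545, 9751, 7326 and 6473 against 1075, 836, 1111, 896 and 964 (log2 difference 2.86, adjusted p = 1.12e-11), whereas a second probe set did not pass the test (0.23). Col4a3 and Col4a4, chains of kidney and lung membranes, were at the floor in both.

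**Figure D5:**
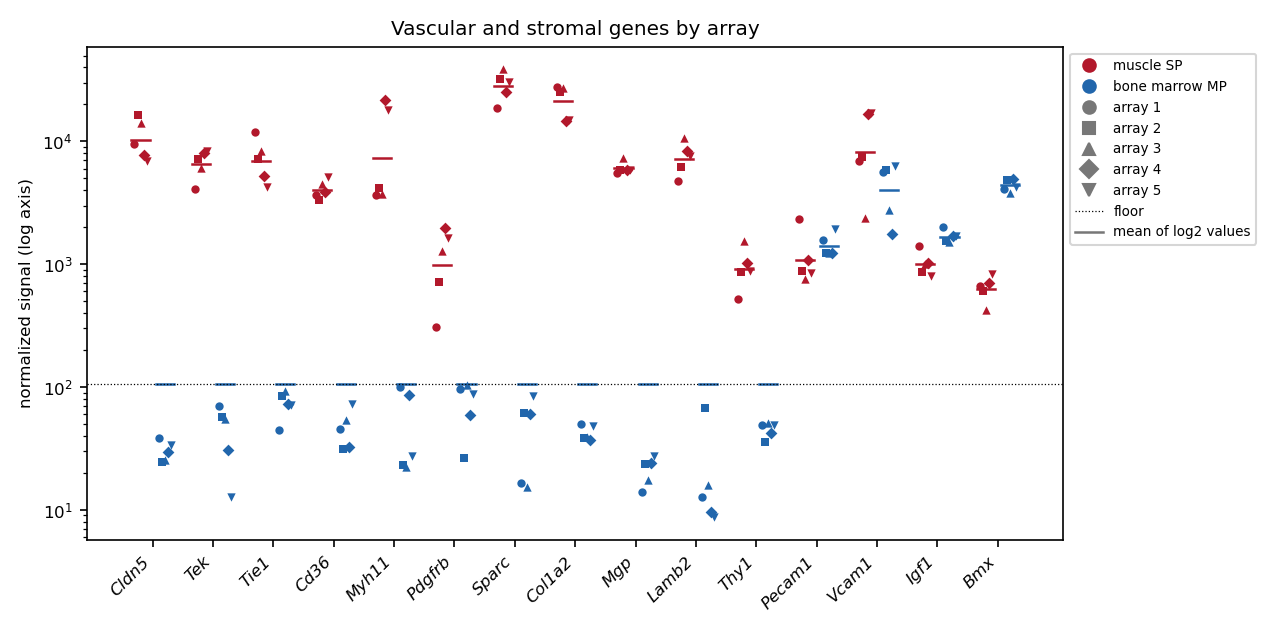
Normalized signal (vertical log axis) of 15 vascular and stromal genes on each array, muscle SP in red left of bone marrow MP in blue, with bars at the mean of log2 values after the floor, marker shapes for the array numbers and a dotted line at the floor of 105 signal. The first 11 genes, each by its brightest probe set, lie below the floor on all bone marrow MP arrays, Pecam1 and Vcam1 overlap between the groups, and Bmx is lower in muscle SP.

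Counted over all 203 measured genes of vascular, stromal, muscle, nerve sheath and fat lists, 52 (25.6%) were at the floor on all bone marrow MP arrays, against 12.3% of all named genes. Of the 52, 25 were above the floor on all muscle SP arrays, 12 were at the floor there too and 15 were mixed. In muscle SP, 157 (77.3%) were above the floor and 98 (48.3%) above the stricter level, not far from the 72.8% and 40.6% of all named genes. In bone marrow MP the counts were 99 (48.8%) and 28 (13.8%), against 73.5% and 42.8% of all named genes. Of 187 tested, 127 (67.9%) were higher and 14 (7.49%) lower in muscle SP, against 21.8% and 25% of all probe sets tested, with a median of 2.00.

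A firmer criterion of presence against absence asked for the stricter level in one group and the floor in the other. By it, and by each gene's brightest probe set, 50 named genes were present in all muscle SP arrays and at the floor in all bone marrow MP arrays, and 15 the reverse. The 50 included 14 genes of the lists used here, among them Cldn5, Tek, Tie1, Cd36, Ptprb, Myh11, Sparc and Lama2. The other members were named from this count after their values were seen. They included Sparcl1, Abcb1a, Cdh13, Gja4, Pros1, Efna1 and Il6. Abcb1a, a further efflux pump, was at least 53.3-fold higher. All 50 were above the floor on all muscle MP arrays too, so by this criterion none was missing from the muscle cells outside the SP gate. In bone marrow SP, 13 of the 50 were above the floor on all arrays and 13 on none. The 15 in the other direction included Ceacam10 and Ctsg of neutrophils, Prg2, Epx and Alox15 of eosinophils, and Irf4, Ly6d and Cd22 of B cells. Of these 15, 5 were above the floor on all bone marrow SP arrays and 8 were at the floor on all muscle MP arrays.

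Few myogenic genes passed the stricter level on all muscle SP arrays. Of 16 tested satellite cell and myogenic genes, 5 (31.2%) were higher and 2 (12.5%) lower, against 21.8% and 25% of all probe sets tested. Of 18 measured, 1 passed the stricter level in muscle SP. Myod1, a master factor of muscle differentiation, did not pass the test (log2 difference 0.00, adjusted p = 0.993). Myf5, its relative, was at the floor in bone marrow MP and had 218, 324, 152, 46.6 and 171 in muscle SP (log2 difference 0.79, adjusted p = 0.0162). It no longer passed when muscle SP 2 was left out (0.57, adjusted p = 0.0661), without muscle SP 1, 2 and 3 (0.35 with an adjusted p of 0.377) and with the floor at the 40th percentile (0.069). Met and Musk were at the floor in both groups. Ncam1, a surface protein of satellite cells and NK cells, was lower in muscle SP, with 2403, 1354, 542, 902 and 780.2 against 8276, 11579, 6940.3, 6948 and 7864 (log2 difference -2.97, SE 0.36, adjusted p = 4.21e-07). Acta1, skeletal muscle actin, had 4313, 5359, 5445, 636 and 773 in muscle SP, against 119.7, 97, 37.9, 111 and 88.9 in bone marrow MP (log2 difference 4.39, SE 0.52, adjusted p = 2.41e-07). It was higher on muscle SP 1, 2 and 3, as the neutrophil and erythroid sums were. The log2 difference of Acta1 was 2.70 with an adjusted p of 3.29e-05 without those arrays. Of 28 muscle fibre genes tested, 8 (28.6%) were higher and 5 (17.9%) lower, not far from the shares of all probe sets tested. The counts were 4 and 4 of 27 without muscle SP 1, 2 and 3 and 12 and 3 of 27 without muscle SP 4 and 5. The summed signal of the muscle fibre list was 14826 to 40184 in muscle SP and 14924 to 16458 in bone marrow MP. Among Schwann cell genes, 6 of 11 were higher and 1 lower. Sox2, a stem and glial factor, varied widely among muscle SP arrays, with 1365, 576, 189, 234 and 98.7, against 35, 83.6, 59.9, 52.7 and 34.3 in bone marrow MP (log2 difference 1.64, adjusted p = 0.00707). Its difference was 0.58 with an adjusted p of 0.282 without muscle SP 1, 2 and 3, when 3 Schwann cell genes were higher and 3 lower. Mbp, a myelin protein whose gene also has a blood form, was lower by its brighter probe set (log2 difference -3.38, adjusted p = 2.02e-11) and higher by 3.55 log2 units by a second one. Pparg, the fat cell factor also found in capillaries, had 1114, 1065, 1361, 774 and 1127 in muscle SP and 46.9, 15.9, 53.9, 39.8 and 15.5 in bone marrow MP, at least 10.2-fold higher, while Cidec, of fat droplets, was at the floor in both.

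Proliferation genes were lower and immediate early genes higher in muscle SP. Of 32 DNA replication genes tested, 25 were lower and 1 higher, with a median log2 difference of -1.37, and of 30 mitosis genes 26 were lower and none higher (median -1.34). Cks2, a partner of mitotic kinases, had 7126, 8119, 5611, 5186 and 4347 in muscle SP, against 63898, 72854, 51952, 50315 and 51952 in bone marrow MP (log2 difference -3.28, SE 0.21, adjusted p = 9.32e-12). Mcm5 of the replicative helicase had 381, 459, 533, 493 and 209.7 against 2297, 2221, 2916, 3403 and 3283 (log2 difference -2.81, adjusted p = 1.08e-08). Of 25 immediate early and stress genes, 20 were higher and 2 lower (median 2.39). Socs3, a feedback inhibitor of cytokine signalling, had 48125, 45097, 48904, 47161 and 39813 in muscle SP and 2154, 1772, 1941, 1488 and 1629 in bone marrow MP (log2 difference 4.68, SE 0.17, adjusted p = 1.04e-15). Ccn1, a matrix protein induced by growth factors and stretch, was at the floor in bone marrow MP, with 11862, 12272, 7303, 11632 and 11632 against 64.9, 85.5, 87, 78.3 and 73.6, at least 103-fold higher. Gadd45a, a growth arrest gene, and Rgs2, a regulator of G proteins, were the 2 lower members (log2 difference -2.36, adjusted p = 2.00e-08 for Gadd45a, and log2 difference -1.01, adjusted p = 3.31e-05 for Rgs2). The immediate early list summed to 700575 to 780227 in muscle SP and 191282 to 282702 in bone marrow MP. The labels do not say how the tissues were dissociated, and the part of that step in these genes was not tested.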

How the data were processed

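The deposited values are signal intensities on a linear scale, 1 per probe set of an Affymetrix mouse array and sample. The authors had scaled each array to a common mean after trimming 2% at each end, as the values themselves show. The labels do not name the probe summary, background correction or software. Because array medians still differed by more than 0.1 log2, the 20 arrays were quantile normalized, values under the 25th percentile were set to it (the floor), and log2 was taken. Probe sets above the floor on at least 5 of 20 arrays were tested with limma 3.58.1 in R 4.3.3 (lmFit and eBayes, 4 groups, muscle SP minus bone marrow MP, two-sided, Benjamini-Hochberg over 10310 probe sets, threshold 0.05). Printed signals are normalized values before the floor, and adjusted p-values come from this limma fit. A fold against a group at the floor on every array is given as "at least". No signal is compared between probe sets.

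Of 12422 probe sets, 10833 carried 1 symbol in the platform annotation, 396 several and 1193 none, and the last 2 kinds were named nowhere. A gene was read by its probe set of highest mean over 20 arrays, and some of these can bind transcripts of related genes. Named genes were the 12 largest rises and falls without overlap, up to 6 detected and 4 floor-level members of each blood list, up to 6 floor-level and 4 detected members of each stromal list by level in bone marrow MP, up to 3 changes each way of the proliferation and stress lists, and a set named whatever its values. Genes outside this rule were chosen after their values were seen. The members and lists were chosen with earlier results of these data known. The limma script was tested on simulated data. Python 3.11.15 with matplotlib 3.10.9 drew the figures. Replicate numbers were not used as pairs in the main fit. Alternatives are given in the closing section.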

Additional observations from a re-analysis of the deposited data

Results flagged for a closer look

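Of 420 sets of 5 values (210 named probe sets in each group), 31 held a sample far from the other 4. Chance gives about 1 in 20 only for values not cut at a floor. A set with 4 values at the floor and 1 above it is always flagged, and a set wholly at the floor never is. The count therefore cannot be set against that rate. Values are log2 signals after the floor. In muscle SP, array 2 was apart for Arg2 (6.86), Chil1 (7.65), Fgfr4 (7.12) and Mpo (8.94). Array 3 was apart for Ccn1 (12.83), Gadd45a (11.67), Gata3 (10.00), Mgp (12.85), Mmp8 (7.16), Mmp9 (6.88), Pgam2 (7.55) and Tnni2 (7.60). Array 5 was apart for Itga8 (7.12) and Lep (10.35), and array 1 for Aurkb (9.16). In bone marrow MP, array 2 was apart for Cavin2 (7.11), Cd3e (6.78), Ebf1 (7.35), Ltf (15.66), Mad2l1 (12.77) and Ptprc (13.88). Array 4 was apart for Ccl5 (10.21), Cd14 (14.38) and Chil3 (16.20). Array 5 was apart for Cd3g (6.89), Csf2rb (6.83), Ctla4 (6.90), Gp5 (7.08) and Gsn (9.87), and array 3 for Gadd45a (14.39) and Hoxa7 (7.08). Many of these are genes whose other 4 values lay at the floor.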

How the results depend on the processing

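The counts of called probe sets stayed within 1.5 times of 2244 higher and 2574 lower under all alternatives run, at 1961 to 2509 higher and 2086 to 2942 lower over the planned settings other than leaving out an array. Among called probe sets 46.6% were higher in muscle SP, against 54.6% on the values as deposited (median log2 difference 0.06) and 40.6% after median scaling (-0.15). Leaving out each replicate in turn gave 2072 to 2312 higher and 2371 to 2711 lower probe sets, 118 to 127 blood genes above the floor in muscle SP, 52 to 57 stromal genes at the floor in bone marrow MP, GAPDH ratio differences of 0.865 to 1.32 and beta-actin ratio differences of 1.42 to 1.70. Detection counts moved most with the floor, by construction. The 118 blood genes became 189 with a floor at the 10th percentile, 66 at the 40th and 25 at the stricter level, and the 52 stromal genes became 11, 99 and 153. Same-numbered arrays correlated at 0.289, 0.00647, 0.188, 0.0783 and -0.0258 in their deviations from group means. The bone marrow MP array that correlated best with muscle SP 1 to 5 was array 1, 4, 3, 4 and 3 in turn. Whether the numbers pair the arrays was not tested. With the replicate block the counts were 2328 higher and 2686 lower. Leaving out muscle SP 4 and 5, an alternative chosen after seeing the data, gave 2005 and 2258, and leaving out muscle SP 1, 2 and 3, chosen likewise, gave 2024 and 2175. Of 185 named genes, 136 kept direction and call in all settings, 22 lost a call and 19 gained one in at least 1 setting, and 14 changed sign in at least 1. The cause of the sign changes was not tested. Gzmb was at 0.086 without further normalization, -0.41 to 0.29 when leaving out 1 array and 0.74 without muscle SP 4 and 5, and it was called lower without muscle SP 1, 2 and 3 (-1.24, adjusted p = 0.0127). Myod1 was at -0.052 with median scaling, -0.14 with array weights, -0.018 with the GAPDH covariate, -0.16 to 0.067 when leaving out 1 array, and -0.23 without muscle SP 1, 2 and 3. Ctla4 was at 0.13 with the lower floor and 0.0083 with a pseudocount. With the covariate Cd3e was at 0.019, Lrg1 at 0.23 and Tpsb2 at -0.16. Without muscle SP 4 and 5, Hba-a1 was at 0.068, Sox10 at 0.13 and Tnnt1 at 0.0069. Without muscle SP 1, 2 and 3, Ccl5 was at -0.49, Cx3cr1 at -0.043, Lep at -0.027, Lrg1 at 0.036, Tpsb2 at -0.28, Trbv1 at -0.51 and Zap70 at -0.59. Genes near the floor are limited by signal over background, so absence here means a level not separable from it.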

Other observations

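Genes on none of the lists also passed the criterion of presence in one group and floor level in the other, and were picked out after their values were seen. Sparcl1, a secreted relative of Sparc, averaged 13.70 ± 0.25 log2 signal in muscle SP (SD, n = 5) and was at the floor in bone marrow MP, at least 127-fold higher. Plpp3, a lipid phosphatase of endothelium, and Il6, a cytokine, were at least 61.0-fold and 59.6-fold higher. Cdh13, a cadherin of vessels, and Gja4, a connexin of arteries, were at least 22.0-fold and 14.0-fold higher, and both were at the floor on all bone marrow SP arrays as well. Efna1 and Cavin3, in contrast, were above the floor on all bone marrow SP arrays.

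In the other direction, Clec4a2, a lectin receptor of myeloid cells, was at the floor in muscle SP and averaged 12.94 ± 0.40 log2 signal in bone marrow MP, at least 75.1-fold lower in muscle SP. Ccr1, a chemokine receptor of myeloid cells, was at least 26.3-fold lower, and Orm1, an acute phase protein, was at the floor too. Clec4a2 was above the floor on all bone marrow SP arrays, and Orm1 was at the floor on all muscle MP arrays.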
